A study of Mus musculus with 4 samples.

Results

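The proteasome genes of the embryonic mouse pallium were examined in a table of long-read RNA counts. A gene was included when it had a row in the table, was annotated as protein-coding in GENCODE M21, and had a symbol made of Psm, a letter from a to g and a digit. This rule, which used no measured value, found 48 of the 16449 genes in the table. The annotation holds 50 such genes, and Psma8 and Psmb11, the subunits known from testis and thymus, were not analysed here. Not all of them encode subunits. The Psmg genes, Psmd5, Psmd9 and Psmd10 encode assembly chaperones, Psme genes and Psmf1 encode activators and an inhibitor that bind the proteasome, and Psmc3ip, a cofactor of meiotic recombination, is no part of it. All were kept because the rule includes them. Classes follow the symbol, so that Psmd5, Psmd9 and Psmd10 stand among the non-ATPases, and Psmc3ip is its own class.

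The proteasome is the protease that degrades proteins tagged with ubiquitin. Its core is a barrel of stacked rings. The alpha rings (Psma genes) gate the entrance, and the beta rings (Psmb genes) carry the cutting sites. A regulatory particle caps the barrel, in which a ring of ATPases (Psmc genes) unfolds the substrate and the non-ATPase subunits (Psmd genes) hold ubiquitin receptors and a deubiquitinase. Other caps open the barrel without ATP (Psme genes), an inhibitor binds its end (Psmf1), and dedicated chaperones put the core together (Psmg genes). Cells exposed to interferon, and cells of the immune system, replace the catalytic beta subunits Psmb5, Psmb6 and Psmb7 by Psmb8, Psmb9 and Psmb10, respectively, to form the immunoproteasome, which makes peptides for antigen presentation. Neural progenitors, like other dividing cells, use the proteasome to remove cell cycle regulators.

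The tissue was the dorsal and medial palliums of embryos at E11.5, the part of the forebrain wall that gives rise to neocortex and hippocampus. There were 2 libraries labelled WT and 2 labelled Tut1 knockout, called knockout-labelled below. Tut1 encodes the enzyme that adds uridines to the end of U6 snRNA. In the knockout-labelled embryos a floxed Tut1 allele was recombined by Emx1-Cre, which is active in the neural stem cells of this region, and other cell types of the tissue may keep the gene. Both alleles are listed as floxed throughout, controls included, and WT thus stands for embryos without Cre. The number of embryos in each library was not stated, nor whether libraries came from separate embryos, and p-values therefore measure only the spread between these libraries, which may be technical.

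The libraries held 305642 to 397150 counted reads, and 45 to 48 of the 48 genes had at least 1 count in each. Tut1 had 6 and 11 reads in WT, against 29 and 25 in the knockout-labelled libraries, which goes against the label (log2 fold change 1.71 ± 0.401 SE, edgeR adjusted p = 0.012). Only 1 exon is removed by Cre, so that a count over the whole gene does not check the genotype. WT replicate 1 had 64 counts of Xist and 0 of 4 Y-linked genes, while the other 3 libraries had 0 of Xist and 41 to 78 of the Y-linked genes, so that 1 WT library came from female tissue and stands apart in sex. Pallial progenitor markers, which define this tissue, were present in all libraries at 433 to 736 summed counts, with Emx1 at 6, 7, 1 and 2 counts. CPM are counts scaled to a common library total, on sizes scaled by TMM. Of the other marker lists tested, neuronal markers were at 374 and 412 CPM in WT and 980 and 886 CPM in the knockout-labelled libraries. Of their 6 tested genes 2 were called higher, where 2.06% of all tested genes were called in either direction. Proliferation markers were at 2160 and 1720 against 1340 and 1420 CPM (1 of 6 called lower), progenitor markers at 2070 and 1880 against 1220 and 1400 CPM (1 of 8 called lower), mesenchyme at 95.7 and 249 against 442 and 297 CPM (1 of 4 called higher), ventral forebrain at 0 and 46.7 against 133 and 83.8 CPM (1 of 2 called higher), red cells at 1230 and 1620 against 1980 and 1330 CPM (1 of 5 called lower), and endothelium at 101 and 114 against 183 and 168 CPM (0 of 2 called). The tested ventral forebrain markers were Dlx1 (0 and 8 against 34 and 14 counts) and Gad2 (0 and 8 against 16 and 11). The called mesenchyme marker was Col1a2 (3 and 7 against 27 and 16). These genes had enough counts to be tested only through the knockout-labelled libraries, which tied their testing to that direction. In bulk tissue, fewer cells of a type and less RNA per cell cannot be told apart, and the part of these shifts in the values below was not tested.

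The proteasome genes together took 0.276% and 0.264% of all counts in WT replicates 1 and 2, and 0.294% and 0.295% in the knockout-labelled libraries. Both knockout-labelled values were above both WT values, by 0.127 on the log2 scale. The difference was 0.077 on TMM-scaled library sizes and lay between 0.094 and 0.16 when 1 library was left out. The summed reads were 996, 1035, 1169 and 901, and the median tested gene of the family had 22 counts per library, as had the median of all tested genes.

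Levels within the family were uneven. To compare genes, CPM were divided by the length in kilobases of the transcript with the longest coding sequence. Psmb6, the catalytic subunit with caspase-like activity, was highest on this scale at 338 ± 8.14 CPM per kilobase (mean ± SD over the 4 libraries). The values of the libraries were 342 and 332 in WT, against 331 and 348 in the knockout-labelled libraries, the narrowest relative spread among the genes described here. The other constitutive catalytic subunits were much lower, Psmb5 (chymotrypsin-like activity) at 16.5 ± 5.54 and Psmb7 (trypsin-like activity) at 19.3 ± 6.19 CPM per kilobase, although the assembled core holds these subunits in equal number. Psmb5 and Psmb7 overlapped each other and were below Psmb6 in every library.

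Behind Psmb6 came the ubiquitin receptor Psmd4 at 84.1 ± 13.01, the alpha subunit Psma3 at 82.9 ± 20.0, Psma7 at 76.9 ± 18.5 and Psmd5, a chaperone of the regulatory particle, at 70.1 ± 6.77 CPM per kilobase (SD over 4 libraries). These neighbours did not differ beyond their spread. At the lower end were Psme2b at 0.737, Psmb10 at 2.00 and the chaperone Psmd10 at 3.03 CPM per kilobase, each with 0 to 3 counts in every library. Among the 14 constitutive core subunits the highest level was 34.1 times the lowest, that of Psma6 at 9.90 ± 3.71 CPM per kilobase. The base ATPases lay in a narrow range, from Psmc3 at 24.7 ± 8.43 to Psmc1 at 45.6 ± 4.28 CPM per kilobase. The order depends on the division by length. Without it, Psmd5 was highest at 308 CPM, followed by Psmb6 at 270 CPM and Psma3 at 236 CPM, and 5 of the 10 highest genes stayed among the 10 highest.

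**Figure D1:**
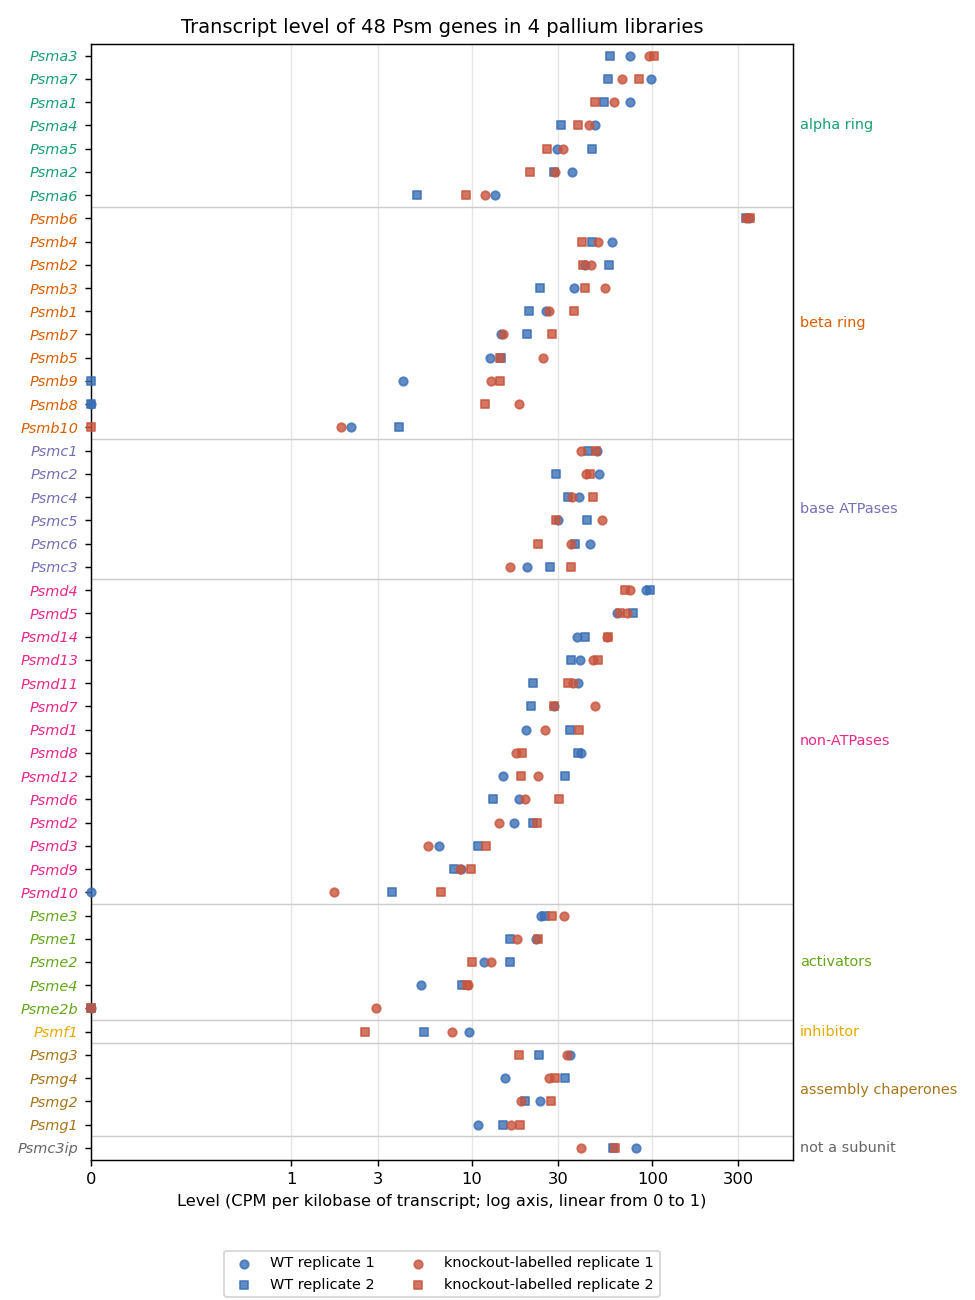
Level of each of the 48 Psm genes in the 4 libraries, in CPM per kilobase of transcript on a log axis that is linear from 0 to 1. Rows are grouped by class and ordered by mean level, blue marks WT and red the knockout-labelled libraries, and circles and squares are replicates 1 and 2. Psmb6 lies between 331 and 348 in all 4 libraries, while Psmb8 is at 0 in both WT libraries and at 18.2 and 11.9 in the knockout-labelled ones.

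To ask whether the proteasome genes differ in abundance between the genotypes, all genes were compared with the quasi-likelihood test of edgeR. Of the 48 genes, 33 had enough counts to be tested among 5878 genes. The filter left out 15 genes, namely Psma6, Psmb5, Psmb7, Psmb8, Psmb9, Psmb10, Psmd3, Psmd9, Psmd10, Psme1, Psme2, Psme2b, Psmg1, Psmg2 and Psmg4. No tested proteasome gene passed an adjusted p of 0.05 (0 of 33), where 2.06% of all tested genes did. Limma-voom also called 0 of the 33, where it called 2.09% of all tested genes, and DESeq2 called 0, where it called 0.136% of all tested genes, too few to say anything of the family. At an unadjusted p below 0.05 there were 2 genes, or 6.06%, against 14.2% of all tested genes.

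The changes were spread on both sides of zero, with 17 genes positive and 16 negative. The median log2 fold change was 0.008, beside -0.015 over all tested genes, and it rested on values from -1.109 to 0.704. In 9 genes, or 27.3%, both knockout-labelled libraries were above both WT libraries, where 22.1% of all tested genes had this order. In 3 genes, or 9.09%, both were below, where 20.8% of all tested genes had that order. When 1 library was left out, a lone library made such orders more frequent, at 35.7 to 36.7% (higher) and 34.8 to 36.1% (lower) of all tested genes. The family then had 14 higher and 7 lower genes without WT replicate 1, and 12 and 14 without WT replicate 2. Leaving out knockout-labelled replicate 1 gave 14 and 11, and leaving out knockout-labelled replicate 2 gave 10 and 8. With all 4 libraries, the 9 genes were Psma3, Psmb1, Psmb3, Psmd6, Psmd7, Psmd13, Psmd14, Psme3 and Psme4, and the 3 genes were Psmc6, Psmd4 and Psmd8. With a median SE of 0.348 the test could not resolve small differences, and a difference of more than 2-fold could go uncalled, as that of Psmd8 did. For 19 of the 33 genes the 95% interval of the change lay within 2-fold in either direction (between -1 and 1 on the log2 scale).

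**Figure D2:**
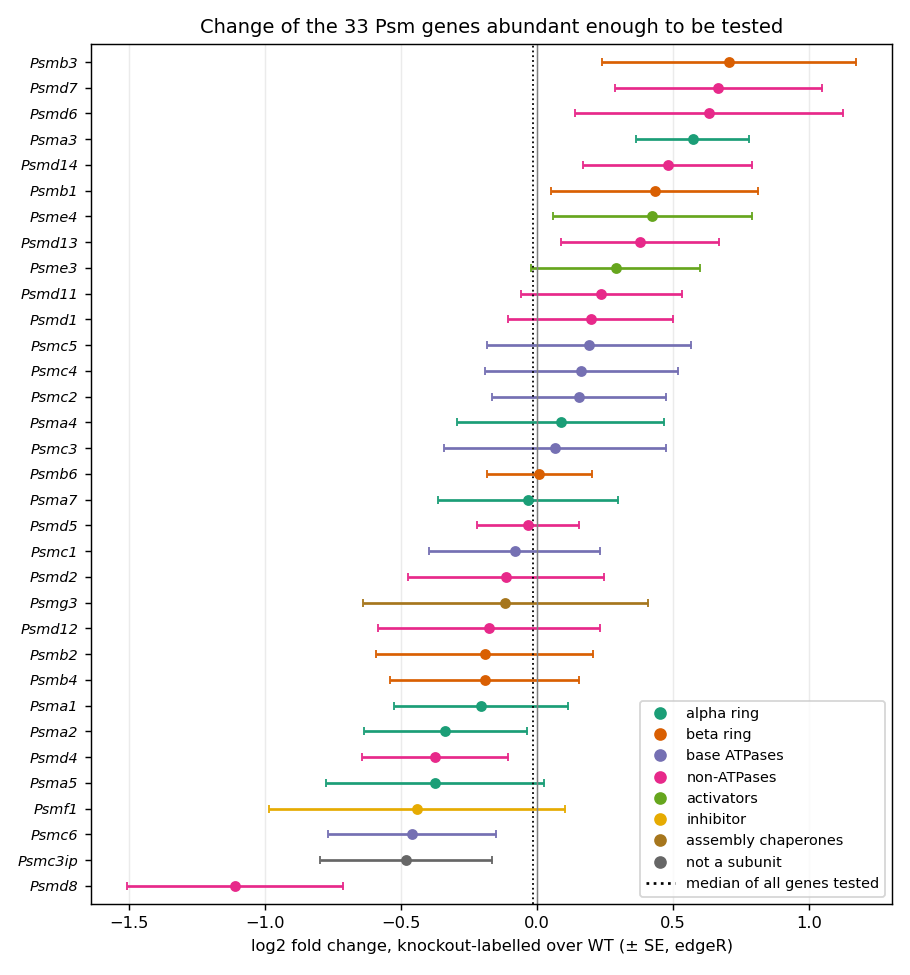
Log2 fold change of the 33 tested genes, knockout-labelled over WT, with its SE (edgeR), coloured by class and ordered by size. The points run from -1.11 for Psmd8 to 0.70 for Psmb3 around the dotted median of all genes (-0.015), and none passed an adjusted p of 0.05.

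**Figure D3:**
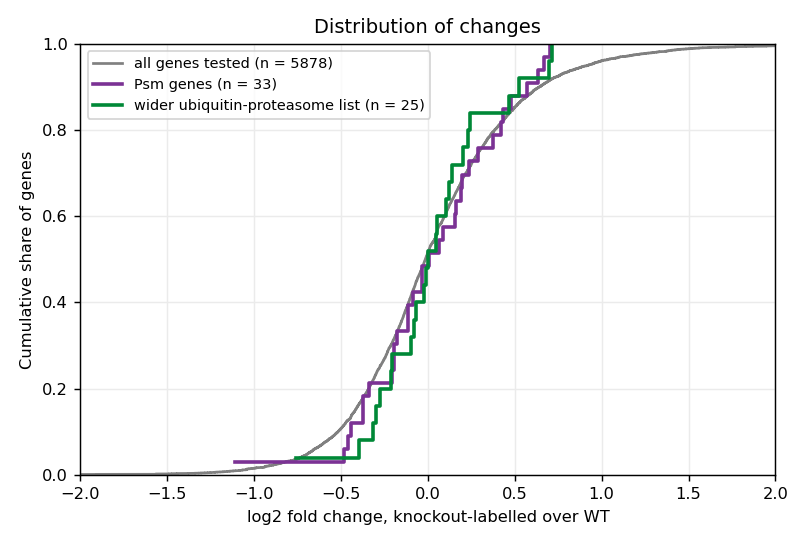
Cumulative share of genes (vertical axis) by log2 fold change (horizontal axis, shown from -2 to 2) for all 5878 genes tested, the 33 Psm genes and 25 other genes of the ubiquitin-proteasome system. The 3 curves cross near zero, at medians of -0.015, 0.008 and 0.003.

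In the regulatory particle, Psmd8 (chromosome 7, 29174188 to 29180701; GRCm38), a subunit of the lid, had the smallest p of the 33 tested genes. The 2 WT libraries had 22 and 23 reads and the knockout-labelled ones 11 and 9, and the groups did not overlap. This corresponds to 60.8 ± 1.60 against 28.1 ± 1.32 CPM (WT first; mean ± SD, n = 2 each). The log2 fold change was -1.11 ± 0.396 (SE; edgeR unadjusted p = 0.00789, adjusted p = 0.15) and the adjusted p lay between 0.138 and 0.509 under the alternatives that gave one. DESeq2 gave none, at an unadjusted p of 0.0892. With Psmd8 included, the non-ATPases went both ways, 6 of the 11 tested genes being positive and 5 negative, and their median was 0.196 on the log2 scale. This median was -0.137 without WT replicate 1.

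Psmd4 and Psmd2, which receive ubiquitin chains and ubiquitin-like domains, had 42 and 48 against 39 and 28 counts, and 18 and 25 against 17 and 21 counts. Their log2 fold changes were -0.38 ± 0.268 and -0.11 ± 0.361 (SE), and neither passed the test. The lid deubiquitinase Psmd14, which removes ubiquitin chains from bound substrates, had 21 and 25 reads in WT, against 35 and 27 in the knockout-labelled libraries (0.48 ± 0.31, adjusted p = 0.535 in edgeR). The log2 fold change of Psmd14 was 0.21 after thinning to the smallest library. Its neighbour in the lid, Psmd7, had 16 and 13 against 31 and 14 counts (0.67 ± 0.38), where 1 library carried most of the difference. The log2 fold change of Psmd7 was 0.203 when knockout-labelled replicate 1 was left out, 0.959 when knockout-labelled replicate 2 was, and 1.425 after thinning to the smallest library (edgeR adjusted p = 0.159).

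All 6 base ATPases were tested, with a median log2 fold change of 0.11, 4 positive and 2 negative, and no call. Psmc6 was the lowest, at 36 and 32 counts in WT against 32 and 16 in the knockout-labelled libraries (-0.46 ± 0.309 SE, edgeR adjusted p = 0.556). The value depended on which knockout-labelled library was kept, at -0.218 with replicate 1 alone and -0.829 with replicate 2 alone. Psmc1 had 28 and 27 against 26 and 24 counts, and Psmc3 13 and 19 against 12 and 20 counts. In both, the groups overlapped in CPM and the sign of the change turned when 1 library was left out. The median of the class was also below zero without WT replicate 1 (-0.014), WT replicate 2 (-0.038) or knockout-labelled replicate 2 (-0.117).

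In the alpha ring, Psma3 (chromosome 12, 70974621 to 70996347; GRCm38) had 76 and 64 reads in WT, against 111 and 90 in the knockout-labelled libraries. The groups did not overlap, at 214 and 166 CPM in WT against 274 and 290 CPM. The log2 fold change was 0.57 ± 0.208 (SE; edgeR unadjusted p = 0.00909, adjusted p = 0.161), and no alternative brought the adjusted p below 0.114. Psma3 overlaps 3110056K07Rik on the opposite strand, which had 5, 6, 9 and 5 counts, and 3 processed pseudogene rows aligned to its transcript held 7 counts in all. The other 5 tested alpha subunits had log2 fold changes from -0.376 to 0.086, and the median of the ring was -0.119 (0.229 without WT replicate 1).

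In the beta ring, 5 of 10 genes were tested, and their median log2 fold change was 0.008. That value is the one of Psmb6 (chromosome 11, 70525367 to 70527858; GRCm38), which had 97 and 102 reads in WT, against 107 and 86 in the knockout-labelled libraries. Its 95% interval ran from -0.382 to 0.398 on the log2 scale, a tight bound for this table, and the sign of so small a value turned under 3 alternatives. Among these 5, the largest change was that of Psmb3, a structural subunit, with 10 and 7 against 17 and 10 counts (0.70 ± 0.467 SE, edgeR adjusted p = 0.55). It was 1.045 when WT replicate 1 was left out and 0.43 when WT replicate 2 was. Psmb5 and Psmb7 fell below the filter, with 4 and 5 against 9 and 4 counts and 6 and 9 against 7 and 10 counts. Nek6, which overlaps Psmb7 on the opposite strand, had 165 to 251 counts in each library, so that the low count of Psmb7 is uncertain if strand was not used in the counting.

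The caps, the inhibitor and the chaperones showed no call either. Among the activators, the nuclear activator Psme3 had 23 and 26 reads in WT, against 35 and 23 in the knockout-labelled libraries (0.29 ± 0.311 SE). Psme4, the large single-chain activator, had 12 and 22 against 25 and 19 counts (0.42 ± 0.365), and in both genes the knockout-labelled libraries were higher in CPM. The value of Psme4 was 0.113 with WT replicate 1 left out and 0.871 with WT replicate 2 left out. Psme1 and Psme2, which form the activator induced by interferon, had 9 and 7 against 8 and 8 counts and 4 and 6 against 5 and 3 counts, too few for the filter and overlapping between the groups. Psme2b, a near copy of Psme2 that can exchange reads with it, had 1 count in 1 knockout-labelled library and 0 in the others. The inhibitor Psmf1 had 13 and 8 against 12 and 3 counts (-0.44 ± 0.543), the widest SE of the 33 tested genes.

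The chaperones Psmg1 and Psmg2 form a pair that starts the assembly of the alpha ring, and Psmg3 and Psmg4 form another. Psmg1 had 4 and 6 counts in WT against 7 and 6, and Psmg2 had 9 and 8 against 8 and 9. Psmg3 had 11 and 8 against 12 and 5 counts (-0.12 ± 0.522 SE), and Psmg4 had 3 and 7 against 6 and 5. In Psmg1 both knockout-labelled libraries were higher, at 11.3 and 15.6 CPM in WT against 17.3 and 19.3 CPM, an order that 22.1% of all tested genes had. Of these 4 genes only Psmg3 had enough counts to be tested, and no difference was detectable at this depth. Psmc3ip had 37 and 30 reads in WT, against 21 and 25 in the knockout-labelled libraries (-0.48 ± 0.316, edgeR adjusted p = 0.542), and its groups overlapped, at 77.8 CPM in WT replicate 2 and 80.6 CPM in knockout-labelled replicate 2. Its log2 fold change was -0.168 with knockout-labelled replicate 2 alone in its group and -0.802 with knockout-labelled replicate 1 alone.

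The inducible catalytic subunits were at low counts. Psmb8 (chromosome 17, 34197721 to 34201454; GRCm38) had no read in either WT library (0 and 0), against 12 and 6 in the knockout-labelled libraries. Psmb9 (chromosome 17, 34181987 to 34187764) had 2 and 0 reads in WT, against 7 and 6 in the knockout-labelled libraries. For both genes the groups did not overlap. Psmb10, which is induced together with them, had 1 and 2 reads in WT, against 1 and 0 in the knockout-labelled libraries. These reads did not share the order of Psmb8 and Psmb9. They are too few to tell the change of Psmb10 from theirs (log2 fold change -1.335 ± 1.951 SE, edgeR without the filter).

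All 3 inducible genes were below the filter. When all 15083 genes with at least 1 count were tested, Psmb8 was the only 1 of the 48 genes called (edgeR adjusted p = 0.00066), where 0.935% of all genes were called. Set against a WT floor of 3 counts summed over both libraries, its 18 knockout-labelled reads gave a 6.21-fold ratio after scaling. This ratio leaves out the counting error of the 18 reads and is not a lower bound. Limma-voom without the filter also called Psmb8 (adjusted p = 0.000214), where it called 1.05% of genes. DESeq2 gave it no adjusted p (unadjusted p = 0.00337). The call of Psmb8 was lost without knockout-labelled replicate 1 (edgeR adjusted p = 0.24), WT replicate 1 (0.0752) or WT replicate 2 (0.0668), and kept without knockout-labelled replicate 2 (0.00344). Psmb9 did not pass (edgeR adjusted p = 0.193), with a ratio of 6.73 and an exact 95% counting interval from 1.52 to 61.4. Its fitted log2 fold change of 2.607 rested on the WT libraries, being 1.573 without WT replicate 2 (adjusted p = 0.913), while without WT replicate 1 no WT read remained (adjusted p = 0.259).

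Within the catalytic subunits, the inducible share of counts was 3 of 110 (2.73%, exact Clopper-Pearson 95% interval 0.566 to 7.76) and 2 of 118 (1.69%, 0.206 to 5.99) in WT replicates 1 and 2. It was 20 of 143 (14.0%, 8.76 to 20.8) and 12 of 112 (10.7%, 5.66 to 18.0) in knockout-labelled replicates 1 and 2. The counts summed over the libraries gave 2.19% (0.716 to 5.04) in WT and 12.5% (8.74 to 17.3) in the knockout-labelled group, with intervals that cover counting error only. The intervals of the sums did not overlap, whereas that of knockout-labelled replicate 2 alone overlapped those of both WT libraries. Psmb8 was 18 of the 31 counts of Psmb8 and Psmb5 in the knockout-labelled group (58.1%, 39.1 to 75.5) and 0 of 9 in WT (upper bound 33.6%), whereas Psmb9 was 13 of 206 counts of Psmb9 and Psmb6 (6.31%, 3.40 to 10.50) against 2 of 201 (0.995%, 0.121 to 3.55). The intervals of the groups were apart for Psmb8 and overlapped for Psmb9. An exact permutation test over the 4 libraries cannot go below a two-sided p of 0.333.

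**Figure D4:**
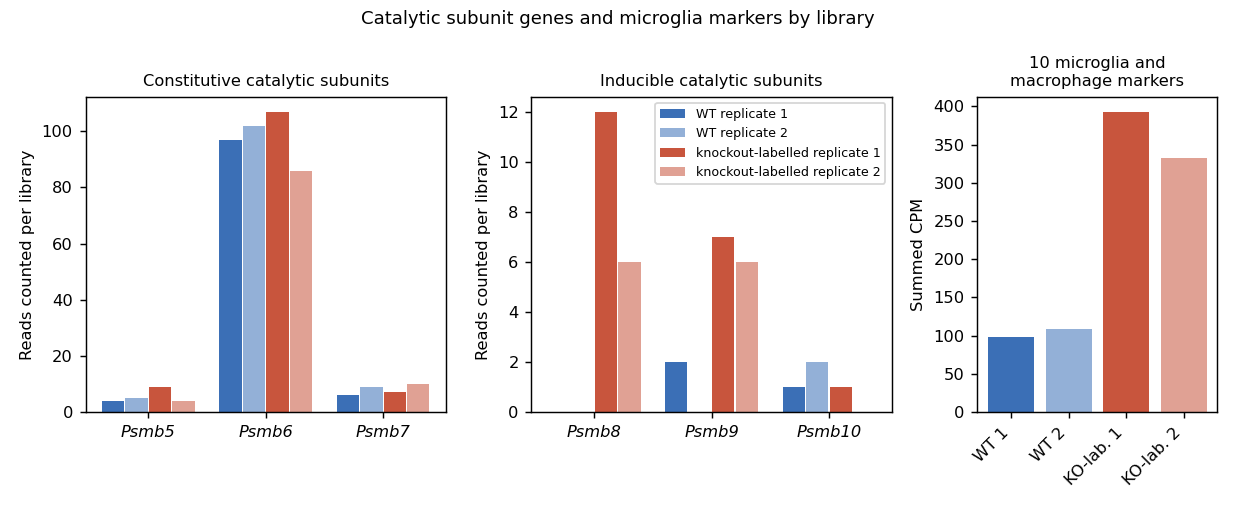
Reads counted per library for the constitutive catalytic subunits (left) and the inducible ones (middle), and the summed CPM of 10 microglia and macrophage markers (right), with WT in blue and knockout-labelled libraries in red and the lighter shade for replicate 2. Psmb8 and Psmb9 reads lie in the knockout-labelled libraries except for 2 in WT replicate 1, and the marker sum is 98.5 and 109 CPM in WT against 393 and 332 CPM.

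Other genes of antigen presentation were at low counts. Of 15 genes, 13 had a row and none had enough counts to be tested. Their summed level was 56.3 and 72.6 CPM in WT and 93.8 and 74.1 CPM in the knockout-labelled libraries. These values rest on 20, 28, 38 and 23 counts in the same order. Those of WT replicate 2 and knockout-labelled replicate 2 were nearly equal. Tap1, the peptide transporter gene that lies beside Psmb9 and is transcribed away from it, had 0 counts in all 4 libraries, as had the interferon regulator Irf1. The interferon-induced gene Ifit1 had 0 and 0 against 3 and 3 counts. The class I heavy chain genes H2-K1 and H2-D1 had 4 and 10 against 8 and 6 and 10 and 3 against 5 and 3 counts.

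Microglia and macrophages, which use the inducible subunits, were measured through 10 markers, which summed to 98.5 and 109 CPM in WT and 393 and 332 CPM in the knockout-labelled libraries. All 4 markers with enough counts were called higher, where 2.06% of all tested genes were called in either direction. They were Csf1r (16 and 20 against 58 and 34 counts), Cx3cr1 (6 and 6 against 32 and 27), Tyrobp (1 and 4 against 16 and 13) and Aif1 (9 and 6 against 39 and 21). Cx3cr1, Tyrobp and Aif1 passed the filter only through the knockout-labelled libraries, which tied their testing to that direction. The defining markers C1qa, C1qb and Cd68 were at 0 to 3 counts in every library, and C1qa, Fcer1g and Cd68 were at 0 in both WT libraries. The part of microglia and macrophages in the counts of Psmb8 and Psmb9 was not tested. Psmb8 is overlapped on the opposite strand by Gm20496, which was not analysed here, and Psmb9 by Tap1.

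Of the wider ubiquitin-proteasome system, 37 of 38 listed genes had a row and 25 were tested. None was called by edgeR (0 of 25, beside 2.06% of all tested genes), 1 was at an unadjusted p below 0.05 (beside 14.2%), and their median log2 fold change was 0.003 with 13 positive and 12 negative. DESeq2 and limma-voom called 0 as well. The 1 gene was Adrm1, a ubiquitin receptor of the regulatory particle without a Psm symbol, with 24 and 17 reads in WT, against 33 and 32 in the knockout-labelled libraries (0.72 ± 0.323 SE, adjusted p = 0.287). The 6 tested genes of other proteasome parts and assembly, among them Pomp, Usp14 and Uchl5, were all positive with a median of 0.314, from 0.048 for Uchl5 to 0.716 for Adrm1, and none passed the test. The median was -0.214 over 11 shuttle and segregase genes (7 negative), -0.045 over 4 ubiquitin genes (3 negative) and -0.013 over 3 genes of transcription factors and their processing (2 negative), and the 1 tested E1 gene was at 0.12. Nfe2l1, the transcription factor that raises proteasome genes when degradation fails, had 16 and 20 against 23 and 17 counts (0.20 ± 0.36). Zfand5, a protein that stimulates the proteasome, had 9 and 43 against 10 and 19 counts, and was called only without WT replicate 1 (log2 fold change -1.44, edgeR adjusted p = 0.0188).

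Promoter sequences were compared as a feature outside the counts. RefSeq promoters (GRCm38.p6) matched 41 of the 48 genes, and the 250 bases before the start were searched on both strands. CCGGAAG, the letters bound by ETS factors, were found in 13 genes or 31.7%, where 10.2% of 17492 protein-coding genes and 7.83% of all 27025 genes held them. The matches nearest the RefSeq start lay 7 to 132 bases before it, within 100 bases in 10 of the 13 genes, and none overlapped another motif searched. GENCODE M21 can place the start elsewhere. There, the sites of Psma6, Psmc1 and Psmd12 lie within the gene, and that of Psme4 spans its start. The sites of 6 genes of the regulatory particle and activators are shown as examples of the shared letters, with 10 bases on each side, read on the strand that carries the motif, and the motif in capitals.
Psmc1 (chr12:100110164-100110190, minus strand): atcgccaccgCCGGAAGtgcatccacc
Psmc6 (chr14:45329714-45329740, plus strand): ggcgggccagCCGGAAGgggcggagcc
Psmd2 (chr16:20651616-20651642, minus strand): gtcctccagaCCGGAAGcgccctgcgg
Psmd4 (chr3:95042723-95042749, minus strand): tacagctgttCCGGAAGctgctgcgaa
Psme3 (chr11:101316096-101316122, plus strand): ggcacaaggcCCGGAAGctccgacagc
Psme4 (chr11:30771712-30771738, plus strand): tggccccgccCCGGAAGtgacttgagg

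Of the 13 genes with these letters, 11 were tested and none was called, beside 2.06% of all tested genes. CCAAT, the NF-Y box, was found in 14 genes or 34.1% against 39.5% of protein-coding genes. TGACNNNGC, the core of the antioxidant response element to which Nfe2l1 binds, was found in 5 genes (Psmb5, Psmb6, Psmc6, Psmd9 and Psmd12) or 12.2% against 12.0%. The promoters of the catalytic subunits Psmb5 and Psmb6 both held it close to the start, 47 and 9 bases before it, although their levels lay at opposite ends of the constitutive catalytic range. They are shown up to the first base annotated as exonic, with the motif in capitals.
Psmb5 (chr14:54618023-54618245, minus strand): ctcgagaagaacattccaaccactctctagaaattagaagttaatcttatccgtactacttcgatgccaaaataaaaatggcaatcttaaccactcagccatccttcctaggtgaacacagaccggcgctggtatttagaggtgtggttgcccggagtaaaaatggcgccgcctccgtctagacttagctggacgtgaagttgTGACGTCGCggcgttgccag
Psmb6 (chr11:70525107-70525356, plus strand): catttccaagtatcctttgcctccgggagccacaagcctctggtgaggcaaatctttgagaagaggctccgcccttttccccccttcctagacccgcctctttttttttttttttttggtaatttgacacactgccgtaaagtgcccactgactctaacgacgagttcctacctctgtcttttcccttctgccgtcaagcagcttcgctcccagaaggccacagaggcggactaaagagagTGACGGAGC

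Interferon-type letters were searched after the counts of Psmb8 and Psmb9 had been seen. The core of the interferon-stimulated response element (GAAA, any 2 bases, GAAA) was found in 3 genes (Psmb3, Psmd4 and Psmd9) or 7.32%, against 3.48% of protein-coding genes. TTCNNNGAA, the core of the gamma-activated site, was found in 2 genes (Psmb8 and Psmg1) or 4.88%, against 7.65%. The site of Psmb8 lies 97 bases before its RefSeq start, within an exon of an annotated transcript of the gene (GENCODE M21). It is shown because Psmb8 was the only Psm gene called by edgeR without the filter.
Psmb8 (chr17:34198088-34198116, plus strand): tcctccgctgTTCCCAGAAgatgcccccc
A match is a match of letters, and no binding was measured here. The starts of Psmb9 and Tap1 lie 226 bases apart in RefSeq on opposite strands, and the 250 bases searched before Psmb9 held neither set of interferon-type letters.

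**Figure D5:**
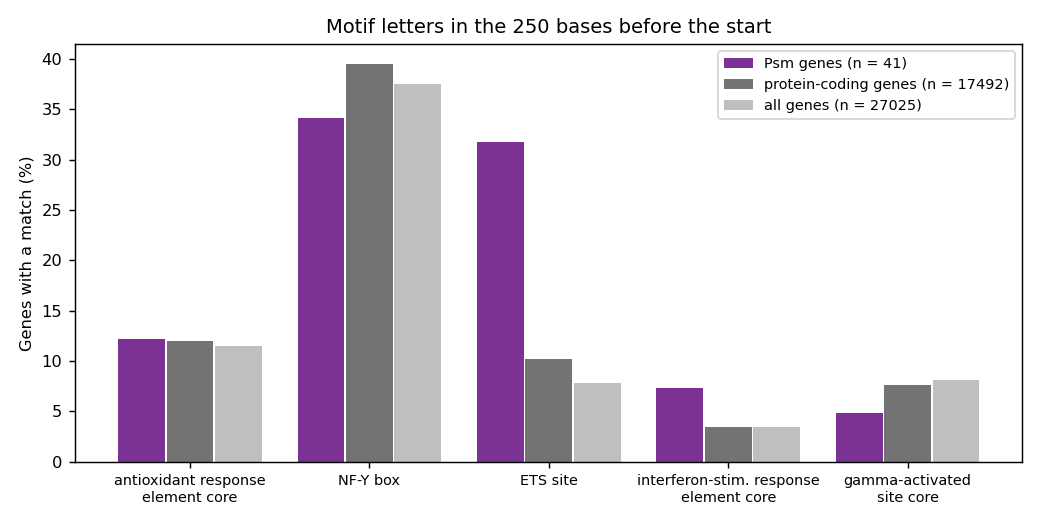
Share of genes, in percent, whose 250 bases before the start hold each motif on either strand, for 41 Psm genes, 17492 protein-coding genes and 27025 genes of all kinds. The ETS site stands at 31.7% in the Psm genes against 10.2% in protein-coding genes, while the antioxidant response element core is at 12.2% against 12.0%.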

How the data were processed

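Nanopore libraries of poly(A)-enriched RNA were made from 2 WT and 2 knockout-labelled samples. The deposited values are raw counts per gene, made by the authors from reads mapped on the Ensembl mouse transcriptome (minimap2) and processed in FLAIR. How isoforms were summed, whether strand was used and how multi-mapping reads were treated is not given in the sources used here, so that reads of overlapping genes or pseudogenes may be exchanged. Of the identifiers, 13 had no match in GENCODE M21. Genes were filtered with filterByExpr (minimum count 10, minimum total 15), scaled by TMM over the total counts of all rows and compared, two-sided and with no covariate, with glmQLFit and glmQLFTest in edgeR 4.0.16 (R 4.3.3), with Benjamini-Hochberg adjustment over 5878 genes. Dividing the size of each log2 fold change by the root of its F gave the SE. The test rested on 2 residual and 36.1 prior degrees of freedom. DESeq2 1.42.0 and limma-voom (limma 3.58.1) were alternatives, beside other scalings, filters, a replicate block, each library left out, thinning, added pseudogene rows and removal of the trend on length. The bias-adjusted form of edgeR's test and the settings without filter for Psmb8 and Psmb9 were added after the data were seen. The procedure was tested on simulated data. Replicates differed by more than counting noise (chi-square per degree of freedom 1.5 and 1.43), and each library was counted as 1 sample. Processed pseudogenes were matched to the genes by blastn, and 8 rows with 13 counts aligned. Intervals are exact at 95%, floors are 3 counts, and both cover counting error only.

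The members and lists were chosen with earlier results of these data known. The genes named were the catalytic, inducible and tissue-restricted subunits, activators, inhibitor, chaperones, Psmd2, Psmd4, Psmd14 and Psmc3ip, the 4 genes of smallest p in each direction, every call, and the highest and lowest level per kilobase in each class. Psma7, Psmd5, Adrm1, Nfe2l1, Zfand5 and the genes of marker and antigen presentation lists were named after their values were seen.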

Additional observations from a re-analysis of the deposited data

How the results depend on the processing

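The count of proteasome genes called (0) was the same under every alternative that kept a filter on low counts. Without a filter it was 1 (Psmb8), also with the replicate block (adjusted p = 0.00361), and 0 in DESeq2 or when any library but knockout-labelled replicate 2 was left out. With the replicate number as a block, edgeR also called 0 of these genes. The deviations of same-numbered libraries had a correlation of -0.0614. So few libraries, at such low counts, cannot show whether same-numbered libraries share an origin. The count over all genes, 121, was 76 with the replicate block, 8 with DESeq2, 61 after thinning to the smallest library and 18 to 118 with 1 library left out, the lowest without knockout-labelled replicate 1. Among the proteasome genes and the wider list, the block changed no call. The wider list had 0 to 1 calls with 1 library left out. Genes with groups that do not overlap numbered 10 to 14 (higher) and 7 to 14 (lower) with 1 library left out, beside 35.7 to 36.7% and 34.8 to 36.1% of all tested genes. In these fits the lone library was assumed to vary like those of the other group. The median log2 fold change was 0.114 without the filter, 0.042 after thinning, 0.058 on total counts, 0.037 without Psmc3ip (chosen after seeing the data) and -0.023 to 0.058 with 1 library left out. The share of counts held by these genes differed by 0.077 on TMM-scaled sizes and by 0.094 to 0.16 with 1 library left out.

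Among the genes for which the alternatives were run one by one, the sign turned in 7, none of them called under any alternative run, and the cause was not tested. After thinning the log2 fold change was -0.028 for Psmb6, 0.034 for Psmd2, -0.012 for Psme3 and 0.145 for Psmg3, and limma-voom gave -0.034 for Psmc3. With 1 library left out it ranged from -0.025 to 0.045 for Psmb6, -0.211 to 0.058 for Psmc1, -0.538 to 0.576 for Psmc3, -0.463 to 0.223 for Psmd2, -1.52 to 0.06 for Psmf1 and -0.66 to 0.203 for Psmg3. The median tested gene of the proteasome had 22 counts per library.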
